A study of Mus musculus with 36 samples.

Results

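Broad H3K9me3 peaks of 10 kb or longer were described in liver chromatin of male and female mouse offspring. A member was any autosomal row of the 6 deposited tables whose parent peak measured at least 10000 bp from start to end, so the members were chosen by a measured value, the length of the called peak. The rule found 8594 rows of 786789 in the 6 tables. Each row is 1 bin of about 500 bp, or less at the end of a peak, listed for 1 peak. These rows came from 1449 distinct peaks of 148764 autosomal peaks in females (0.974%) and from 1420 of 168704 in males (0.842%). Each female table held 1446 to 1448 of the long peaks and each male table between 1413 and 1420, and 1443 female and 1413 male long peaks were listed in all 3 tables of the sex.

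The male and female offspring carried 1 or 2 floxed Reg3g alleles (Reg3g fl/+ or Reg3g fl/fl) on a C57BL/6J background. How these genotypes were spread over the groups is not given in the sources used here. Dams were fed a control diet or a Western-style diet, the model of maternal obesity (MO), before mating and through gestation and lactation. Livers were taken at 3 weeks, before weaning, or at 8 weeks, after the young of both kinds of dam had been kept on chow. The 32 ChIP libraries formed 8 groups of 4 by sex, maternal diet and age, with 4 input libraries beside them. Each table covered 8 libraries: MO and control at 3 weeks, MO and control at 8 weeks, or control at 3 and 8 weeks, for each sex. The tables give 1 average value per bin over these 8 libraries and no value per library, so replicate spread could not be computed, no test was made, and everything below is a description.

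H3K9me3 is the trimethylation of lysine 9 of histone H3. It is written by SETDB1 and the SUV39H enzymes, and it is bound by HP1 proteins, which compact the nucleosomes that carry it. In differentiated cells the mark is best known from satellite and transposon sequence and from clusters of KRAB zinc finger genes. It also covers genes of other lineages, which the tissue does not use, and in such regions it can spread over many kilobases. Liver is made mainly of hepatocytes, and the tables describe whole tissue, so fewer cells with the mark and less of the mark per cell cannot be told apart.

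The sequence of a few long peaks is shown first, since base composition and repeat content set most of these peaks apart from their surroundings. The 6 runs below are the first 300 bases of a listed bin outside annotated untranslated exons (from the female 3-week table at Engase and Padi3, and from the table of control females of both ages at the others), at the 6 longest loci among those with a long peak in all 6 tables. Loci were ranked by the median over the 6 tables of the longest peak that each table lists there. They were read from the plus strand of GRCm38 (the build also called mm10). Capitals mark CpG dinucleotides, the main sites of DNA methylation.
Engase, chr11:118486711-118487010: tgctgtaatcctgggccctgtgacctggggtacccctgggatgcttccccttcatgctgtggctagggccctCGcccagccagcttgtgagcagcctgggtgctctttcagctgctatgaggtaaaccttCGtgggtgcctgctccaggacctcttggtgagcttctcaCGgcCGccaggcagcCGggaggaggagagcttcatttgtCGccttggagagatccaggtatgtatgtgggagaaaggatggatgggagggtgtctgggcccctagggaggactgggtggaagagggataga
Nphp4, chr4:152546703-152547002: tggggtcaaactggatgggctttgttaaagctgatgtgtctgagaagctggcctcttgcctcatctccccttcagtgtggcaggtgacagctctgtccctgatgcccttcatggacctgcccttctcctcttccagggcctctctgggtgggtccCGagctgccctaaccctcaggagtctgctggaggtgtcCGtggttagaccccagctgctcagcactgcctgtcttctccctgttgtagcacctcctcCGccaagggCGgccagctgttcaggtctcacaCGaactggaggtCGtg
Celf5, chr10:81477105-81477404: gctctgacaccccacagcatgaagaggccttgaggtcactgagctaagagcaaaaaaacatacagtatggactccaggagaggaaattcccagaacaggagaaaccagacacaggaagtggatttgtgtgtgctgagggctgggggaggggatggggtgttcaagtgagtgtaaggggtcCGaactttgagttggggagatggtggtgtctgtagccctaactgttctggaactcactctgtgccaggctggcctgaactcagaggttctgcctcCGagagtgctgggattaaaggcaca
Prex1, chr2:166582992-166583291: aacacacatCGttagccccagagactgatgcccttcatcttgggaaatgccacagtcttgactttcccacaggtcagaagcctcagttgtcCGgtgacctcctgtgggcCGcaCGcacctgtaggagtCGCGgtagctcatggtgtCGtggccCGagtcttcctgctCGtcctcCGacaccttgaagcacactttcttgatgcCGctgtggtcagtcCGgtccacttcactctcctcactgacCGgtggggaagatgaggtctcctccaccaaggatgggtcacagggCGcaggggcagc
Chd5, chr4:152376628-152376927: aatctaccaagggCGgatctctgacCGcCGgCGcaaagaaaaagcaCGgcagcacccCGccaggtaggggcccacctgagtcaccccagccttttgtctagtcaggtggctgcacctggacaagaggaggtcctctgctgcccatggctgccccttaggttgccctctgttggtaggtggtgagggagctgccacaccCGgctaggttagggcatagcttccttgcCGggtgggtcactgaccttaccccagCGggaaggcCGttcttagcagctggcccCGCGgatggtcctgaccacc
Padi3, chr4:140794328-140794627: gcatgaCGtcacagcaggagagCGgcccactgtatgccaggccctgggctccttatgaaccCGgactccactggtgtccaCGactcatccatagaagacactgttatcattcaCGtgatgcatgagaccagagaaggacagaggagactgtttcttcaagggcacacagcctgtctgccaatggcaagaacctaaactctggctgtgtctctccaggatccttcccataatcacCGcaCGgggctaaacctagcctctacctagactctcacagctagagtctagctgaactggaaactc

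These runs are rich in G and C, from 53.0% at Celf5 and 53.3% at Padi3 to 63.0% at Chd5. They differ in CpG number, from 2 at Celf5 to 12 at Chd5 and 14 at Prex1. Repeats marked by soft-masking in the reference made up 34.3% of the Celf5 run and none of the runs at Engase, Prex1 and Chd5. In the deposited annotation the bins at Nphp4, Chd5 and Padi3 lie in gene bodies and those at Engase, Celf5 and Prex1 at promoters.

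Median length was 13242 bp in females and 13282 bp in males, with middle ranges (first to last quartile) of 11282 to 16924 bp and 11348 to 16419 bp. The length distribution fell off quickly above the threshold: 497 female and 496 male peaks reached 15 kb, 203 and 195 reached 20 kb, and 14 and 12 reached 40 kb. The longest female peak measured 81960 bp and the longest male peak 50257 bp. Under 1% of peaks by number, they covered 22.1 Mb in females and 21.5 Mb in males, which was 10.3% and 9.54% of the bases in all autosomal peaks of the sex.

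The threshold cut through a continuous range. In females the shortest members lay near Pdgfa (10001 bp, log2 CPM 2.67) and Lamc3 (10007 bp, 2.47), and the longest peaks left out lay near Megf6 (9998 bp, 2.61) and Shc2 (9993 bp, 2.50). In males the corresponding peaks lay near Rxra (10005 bp, 1.65) and Adap1 (10010 bp, 1.78), and near Dnah10 (9997 bp, 1.61) and Xxylt1 (9994 bp, 2.05). Over the peaks within 500 bp of the threshold, the median log2 CPM was 2.55 just inside and 2.55 just outside in females, and 2.03 and 2.03 in males.

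The first of these loci by that rank was chr11:118479211-118561398. It spans the end of Rbfox3, the neuronal splicing factor known as NeuN, and Engase, a cytosolic endoglycosidase. In females it was a single peak of 81960 bp. In males it was a pair of peaks of 38767 and 40713 bp. The listed bins had log2 CPM values of 2.43 at 3 weeks, 2.46 at 8 weeks and 2.27 in the control table of females. The 2 male peaks had 1.78 and 1.80 at 3 weeks, 2.76 and 2.65 at 8 weeks, and 2.21 and 1.83 in the control table. The female peak was the longest of all, and its 3 values lay on both sides of the medians of female long peaks given below.

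The other 5 of these loci were as follows. Nphp4, which encodes a protein of the ciliary transition zone, held a peak of 48023 bp in females and 48246 bp in males at chr4:152528689-152576935. Its log2 CPM was 2.61, 3.00 and 3.18 in the 3-week, 8-week and control tables of females, and 1.99, 2.52 and 2.94 in those of males. Celf5, an RNA-binding protein gene, lies with Ncln and Nfic at chr10:81450605-81496433, where the peak measured 45688 bp in females and 42409 bp in males. Prex1, a Rac exchange factor, held peaks of 43537 and 43391 bp at chr2:166559492-166603029, almost equal between the sexes.

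Chd5, a chromatin remodeller of the nervous system, lies beside Kcnab2, a beta subunit of voltage-gated potassium channels, at chr4:152337767-152401880. The female peak of 54153 bp faced 2 male peaks of 31311 and 31756 bp. Padi1 and Padi3 are peptidylarginine deiminases of the epidermis and hair follicle, and lie at chr4:140777828-140839848. The female peak there measured 61505 bp, while males had 3 long peaks of 17763, 13034 and 24092 bp. In 3 of the 6 loci a single female peak lay over several male ones. Over all long peaks, 67 of 1449 female ones met 2 or more male long peaks, and 47 of 1420 male ones met 2 or more female long peaks. Another long peak of the same sex lay within 1 kb for 75 female and 146 male long peaks. Such numbers thus depend on where the caller breaks a peak.

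Signal was given by the authors as the average log2 CPM of the listed bin (its read count scaled to library size), which is a level per bin and not per peak. Long peaks were not the peaks with most signal per bin. Their median log2 CPM was 2.27 in the female 3-week table, 2.51 in the female 8-week table and 2.55 in the female control table. In males it was 1.92, 2.67 and 2.04. Single-bin peaks of up to 500 bp had 2.46, 2.68 and 2.70 in the same female tables and 2.08, 2.77 and 2.13 in the same male tables. In each of the 6 tables the median of the long peaks was thus below that of single-bin peaks, while the middle ranges of both classes overlapped. Each table was normalized by itself, so values of different tables, here and below, are set side by side as listed and a difference between them holds the scaling of the tables too.

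**Figure D1:**
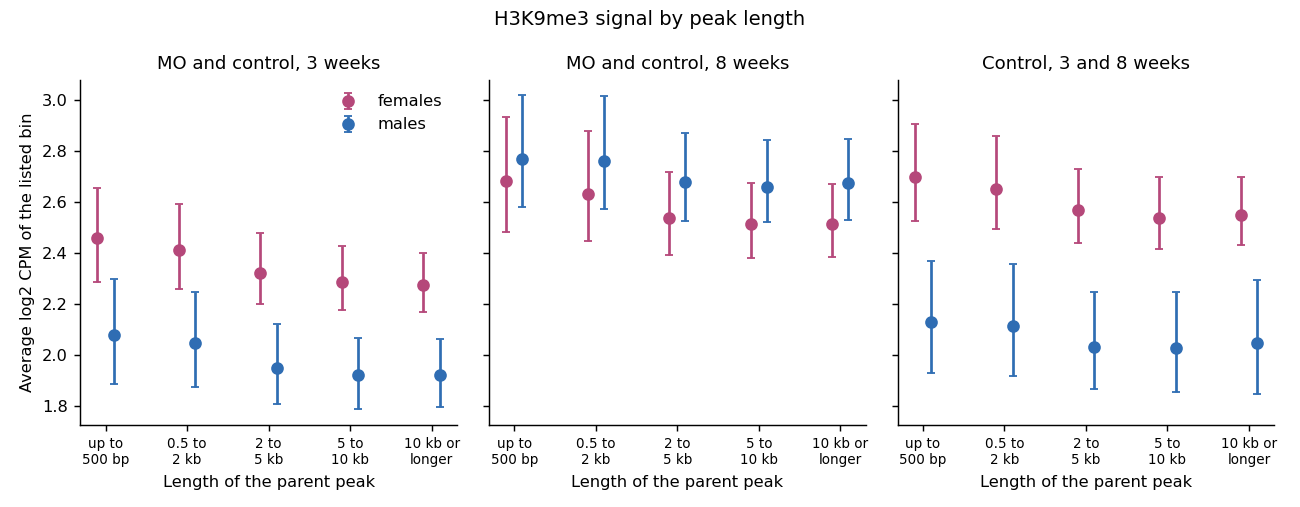
Average log2 CPM of the listed bin (vertical axis) by length of the parent peak (horizontal axis) in the 6 tables, females and males side by side; points are medians over peaks and bars run from the first to the last quartile, over peaks and not over animals. In the 3-week panel the female medians go from 2.46 for single-bin peaks to 2.27 for peaks of 10 kb or longer, and the male medians from 2.08 to 1.92. The listed bin is the whole of a single-bin peak and only a part of a longer one.

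From single-bin peaks to peaks of 5 to 10 kb the median signal went down in each table, and it was flat from there to 10 kb or longer (2.29 and 2.27 at 3 weeks in females, 2.66 and 2.67 at 8 weeks in males). Of the long peaks, 24.3% to 32.4% in the female tables and 29.2% to 43.9% in the male tables lay above the median of all autosomal peaks of their table. The highest log2 CPM of a long peak was between 3.37 and 5.49 in the 6 tables, against 8.50 to 9.65 over the many more autosomal peaks of any length. Above the 99th percentile of all autosomal peaks lay 2.07%, 0.484% and 0.345% of long peaks in the female control, 3-week and 8-week tables, and 3.66%, 0.704% and 1.06% in the male ones. Among long peaks, length and signal were nearly unrelated (Spearman rho between -0.01 and 0.04 over 1413 to 1448 peaks of a table), while GC content of the bin and signal went together more (rho 0.26 to 0.52). These correlations are across peaks of the same libraries and share base composition and depth, so they are given without a test.

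The bin listed for a long peak differed between tables, which limits any comparison of level for the same peak. Among the 1446 female long peaks shared by the 3-week and 8-week tables, 92 (6.36%) had the same bin in both, and among the 1413 male ones 90 did (6.37%). With the control tables the share was 15.4% and 21.2% in females, and 13.2% and 13.4% in males. How a bin was retained for a peak is not given in the sources used here. Over all shared peaks, the rank correlation of a long peak's value between the 3-week and 8-week tables was 0.05 in females and 0.07 in males. Over the peaks with the same bin it was 0.28 and 0.39.

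A small number of long peaks stood well above the rest. Zfp316, a KRAB zinc finger gene at chr5:143249917-143265378, had log2 CPM values of 4.36, 3.55 and 4.98 in the 3-week, 8-week and control tables of females, and 3.27, 2.42 and 4.95 in those of males. It was among the 3 highest long peaks at 3 weeks in both sexes. In the male 8-week table the listed bin lay 10500 bp from that of the control table, and its value was below the median of long peaks there. Zfhx3, a large homeobox and zinc finger transcription factor gene at chr8:108935835-108957167, had 4.06, 2.43 and 4.53 in females and 2.27, 5.49 and 4.58 in males. The male 8-week value of 5.49 was the highest listed for any long peak in the 6 tables.

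Plec, which encodes the cytoskeletal linker plectin, had 3.70, 4.74 and 5.03 in females at chr15:76169222-76211894. The longer male peak there had 2.10, 4.82 and 5.28. Fat1, an atypical cadherin gene at chr8:45020226-45042622, had 3.87, 3.63 and 4.50 in females and 1.79, 3.86 and 4.35 in males. In the control tables, where each sex had its own libraries and peaks, the listed bins of the sexes began 43 bp apart at Fat1, 673 bp apart at Zfp316, 998 bp apart at Zfhx3 and 1272 bp apart at Plec. In the other tables the bins of the sexes lay farther apart at most of these loci, by 12457 bp at Fat1, 7002 bp at Zfhx3 and 4272 bp at Plec at 3 weeks, and by 11827 bp at Zfp316 at 8 weeks.

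A peak at Plcxd1 and the mitochondrial GTPase gene Gtpbp6 (chr5:110096887-110108360) had 5.10 at 8 weeks in males and 3.57 at 8 weeks in females. A peak at Catsperg1, a subunit gene of the sperm calcium channel, and Kcnk6, a background potassium channel gene, had 3.11 at 3 weeks in females and 3.07 at 3 weeks in males (chr7:29209671-29222652). In 1 sex only, long peaks with high signal lay at Camk2b, a brain-enriched kinase subunit gene (females, 4.03 at 8 weeks), at Grin3b, an NMDA receptor subunit gene (females, 3.99 at 8 weeks), and at Def8 (males, 3.37 at 3 weeks). Bins of low and of high signal were thus listed for 1 and the same peak, as at Zfhx3 (2.27 and 5.49 in males).

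**Figure D2:**
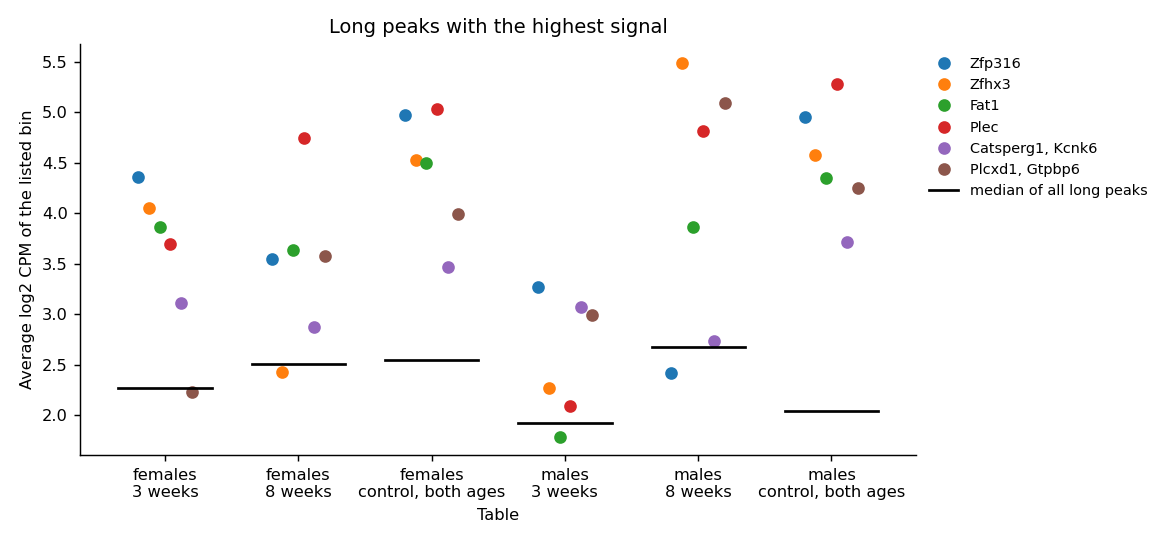
Average log2 CPM of the listed bin (vertical axis) in each of the 6 tables (horizontal axis) for the 6 loci that hold a long peak in all tables and rank among the 3 highest in a 3-week or 8-week table; black lines mark the median of all long peaks of the table. Zfhx3 is listed at 5.49 in the male 8-week table and at 2.43 in the female 8-week table.

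Between the 3-week and 8-week tables of a sex, which share no libraries, the listed values of long peaks were higher at 8 weeks, as were those of other peaks. The median difference, 8 weeks minus 3 weeks, was 0.25 on the log2 scale in females (1185 of 1446 long peaks higher at 8 weeks) and 0.77 in males (1398 of 1413). Over all matched autosomal peaks it was 0.22 in females and 0.66 in males. Relative to that shift, long peaks were higher at 8 weeks by 0.033 in females and 0.10 in males. Peaks of 5 to 10 kb were higher by 0.0053 in females and 0.087 in males. Single long peaks varied more, with middle ranges of the difference of 0.07 to 0.43 in females and 0.55 to 0.96 in males. With the same bin in both tables the median was 0.26 in females (92 peaks) and 0.73 in males (90 peaks). The lowest value listed also differed, 1.64 at 3 weeks and 1.78 at 8 weeks in females and 1.18 and 1.93 in males, and the part of this and of the separate scaling in the difference was not tested.

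The long peaks with the largest 8-week minus 3-week differences were, in females, those at Evpl (2.00 at 3 weeks, 3.82 at 8 weeks), Grin3b (2.20 and 3.99) and Arap1 (2.19 and 3.63). Evpl encodes a protein of the epidermal cornified envelope, and Arap1 a regulator of small GTPases. In males they were Zfhx3 (2.27 and 5.49), the zinc finger gene Zfp146 (1.71 and 4.64) and Plec (2.10 and 4.82). For these 6 peaks the listed bins of both ages lay 3500 to 14500 bp apart, so each pair of values describes different places of the same peak.

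At the other end, values were lower at 8 weeks at Zfhx3 (4.06 and 2.43), a second Nphp4 peak (3.54 and 2.44) and Zfp316 (4.36 and 3.55) in females. In males they were lower at Zfp316 (3.27 and 2.42), Uros, an enzyme gene of heme synthesis (3.01 and 2.60), and Catsperg1 (3.07 and 2.73). Here the bins lay 1500 to 14000 bp apart. Zfhx3 was at opposite ends in the sexes.

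Females and males were compared over 894 pairs of long peaks that overlapped best in both directions, 893 of them listed in each pair of tables. At 3 weeks the female value was higher in 809 pairs, with a median difference, female minus male, of 0.34. At 8 weeks it was higher in 269 pairs, with a median of -0.16, and in the control tables in 792 pairs, with a median of 0.47. For the pairs whose listed bins overlapped by at least 50%, the medians were 0.23 at 3 weeks (50 pairs), -0.15 at 8 weeks (57 pairs) and 0.31 in the control tables (78 pairs). Over all autosomal peaks whose listed bins overlapped by at least 50%, the corresponding medians were 0.32 (61570 bins), -0.10 (51812 bins) and 0.46 (58458 bins). The direction over long peaks was thus that of the tables as a whole, and the tables were normalized separately.

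Peak sets were called for each sex, and the long peaks of the sexes overlapped in part. Of the 1449 female long peaks, 928 (64.0%) overlapped a male long peak, and of the 1420 male ones, 948 (66.8%) overlapped a female one. The shared sequence was 13.5 Mb. Within the 894 best pairs, lengths were related (Spearman rho 0.60), 464 were longer in females and 429 in males, and 442 differed by at most 10% of the longer length.

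Long peaks without a long counterpart were still covered by shorter peaks of the other sex. A female long peak was covered over a median of 94.1% of its bases by male peaks of any length, with a minimum of 51.5%. A male long peak was covered over 94.1% by female peaks, with a minimum of 31.9%. All 1449 female peaks and 1415 of 1420 male peaks were covered over at least 50%. For the 521 female peaks that met no male long peak, median coverage was 86.9% and the longest male peak inside had a median length of 7177 bp. For the 472 male peaks that met no female long peak, it was 86.9% and 7635 bp. At these loci the sexes differed in the length of the called peaks, and peaks were listed in both.

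**Figure D3:**
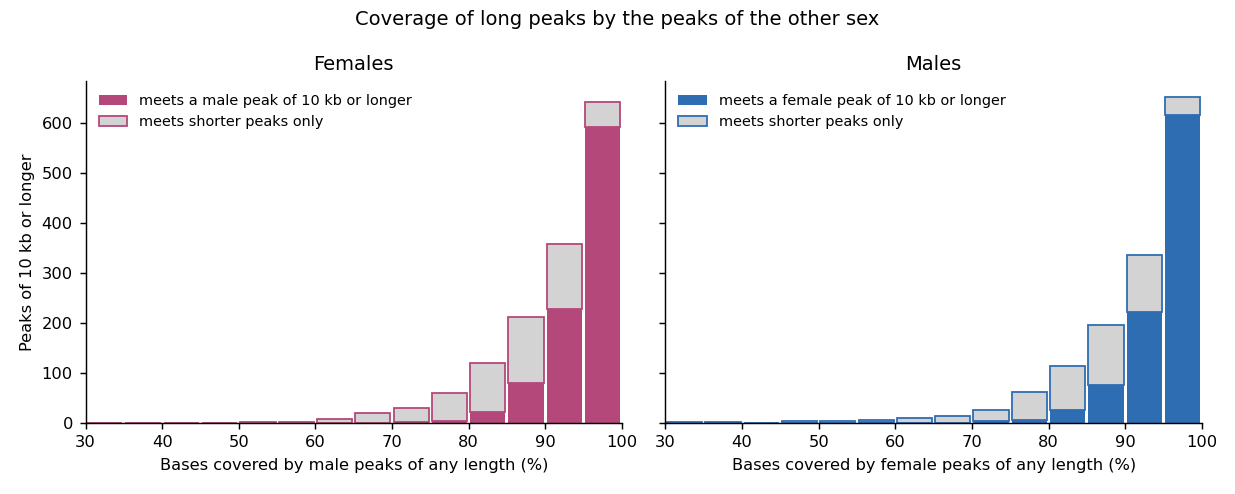
Number of long peaks (vertical axis) by the percent of their bases covered by peaks of any length of the other sex (horizontal axis, classes of 5 percentage points), for the 1449 female peaks on the left and the 1420 male peaks on the right; filled bars are peaks that meet a long peak of the other sex and grey bars those that meet shorter peaks only. Grey bars sit mostly between 75% and 100%.

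Among the longest loci with a long peak in all 3 tables of 1 sex and none in the other, the picture was the same. In females they included a 23517-bp peak at Vash1 (chr12:86682633-86706150), which encodes a tubulin carboxypeptidase, and a 22713-bp peak at the cadherin gene Cdh4 (chr2:179867074-179889787). Male peaks covered 83.5% and 82.1% of these, in 3 and 5 pieces, the longest of 9809 and 5473 bp. In males the loci were a 24973-bp peak at Tafa5 (chr15:87664662-87689635), a secreted brain protein gene, a 24228-bp peak at Adam11 (chr11:102757241-102781469), and a 22677-bp peak at the receptor gene Vipr1 (chr9:121660138-121682815). Female peaks covered 80.3%, 86.2% and 93.8% of these.

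Merging overlapping long peaks of the 6 tables gave 1869 loci, which covered 30.0 Mb or 1.22% of the autosomes. A long peak was listed in all 6 tables at 874 loci (46.8%), in female tables only at 521 and in male tables only at 472. Within a sex nearly all long peaks were in all tables because the tables share the peak set of the sex, so their presence there cannot be read as agreement between ages or diets.

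Long peaks were spread unevenly over the autosomes. Chromosome 11 held 1.24 per Mb in females and 1.33 in males, chromosome 4 held 1.27 and 1.19, chromosome 17 held 1.19 and 1.04, chromosome 8 held 1.01 and 1.08, and chromosome 5 held 0.995 and 1.07. Chromosome 3 held 0.0562 and 0.0625 per Mb, with 9 long peaks in females and 10 in males. Long peaks made up 1.92% of female peaks on chromosome 4 and 0.133% on chromosome 3, so the difference is not that of the number of peaks. Density followed the GC content of the chromosome (Spearman rho 0.73 in females and 0.73 in males over 19 autosomes, which share libraries and base composition).

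**Figure D4:**
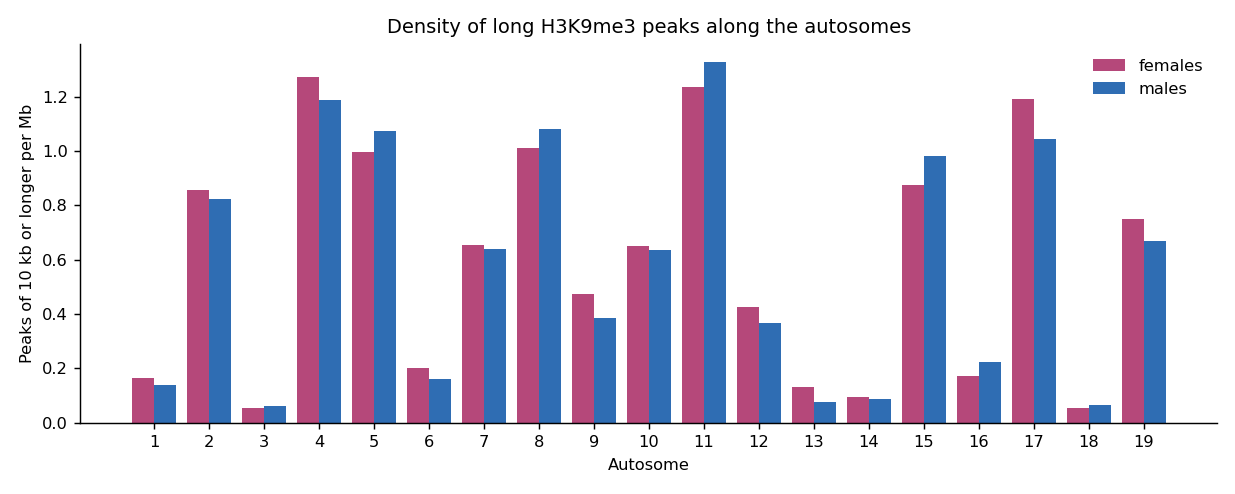
Peaks of 10 kb or longer per Mb (vertical axis, from 0) on each of the 19 autosomes (horizontal axis) in females and males; bars are single counts divided by chromosome length and have no error. Chromosomes 4, 8, 11 and 17 lie above 1 per Mb in both sexes, and chromosome 3 lies at 0.0562 and 0.0625.

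Within chromosomes they gathered towards the end far from the centromere. The last 10% of chromosome length held 28.0% of female and 28.6% of male long peaks, against 15.7% and 15.6% of all autosomal peaks, and the first 10% held 2.07% and 2.18%, against 6.13% and 6.03% of all autosomal peaks. The densest windows of 5 Mb were on chromosome 8 from 120 to 125 Mb (61 long peaks in females, 62 in males), on chromosome 11 from 115 to 120 Mb (52 and 61), on chromosome 17 from 25 to 30 Mb (50 and 43), on chromosome 10 from 80 to 85 Mb (44 and 45) and on chromosome 4 from 150 to 155 Mb (41 and 46). Neighbouring long peaks lay within 10 kb of each other for 30.0% of female and 31.9% of male members. Peaks of any length, which are far more numerous, had a neighbour within 10 kb in 80.8% and 83.4% of cases.

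The label of broad H3K9me3 domains was set against what such domains are best known for, repeats and zinc finger clusters, and the base composition and repeat content did not match that description. The zinc finger share is given below with its limits. GC content was 54.0% in female and 54.2% in male long peaks (medians), against 50.8% in flanks of the same length in both sexes and 41.9% over the autosomes. It was above the mean of both flanks for 1358 of 1449 female peaks (93.7%) and 1341 of 1420 male peaks (94.4%). Peaks of 5 to 10 kb had 52.9% and 53.0%, against 49.5% in their flanks in both sexes. Single-bin peaks had 54.1% in both sexes, so GC content was high in short and long peaks alike and lower in peaks of intermediate length (51.6% in females and 51.7% in males at 2 to 5 kb). The ratio of observed to expected CpG was 0.25 in long peaks of both sexes and 0.23 in the flanks, far below 1 in both.

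Soft-masked repeats made up 13.6% of a female and 13.3% of a male long peak, against 21.8% and 21.7% in the flanks and 33.5% over the autosomes. In peaks of 5 to 10 kb it was 14.4% and 14.1%, against 22.2% and 22.3% in their flanks. The share was below the flanks for 88.6% of female and 89.2% of male long peaks. Only 16 long peaks in each sex exceeded 33%, and the highest share was 45.0% in females and 45.5% in males. In single-bin peaks the median was 17.9% and 17.0%, with middle ranges of 4.63% to 64.8% and 3.82% to 62.9%. Peaks made mainly of repeats were thus found among the short ones. The handling of reads that map to several places is not given in the sources used here, and its part in these shares was not tested. Peaks in blacklisted regions had been removed by the authors, and members are unbroken calls of 10 kb or longer. The part of either in these shares was not tested.

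**Figure D5:**
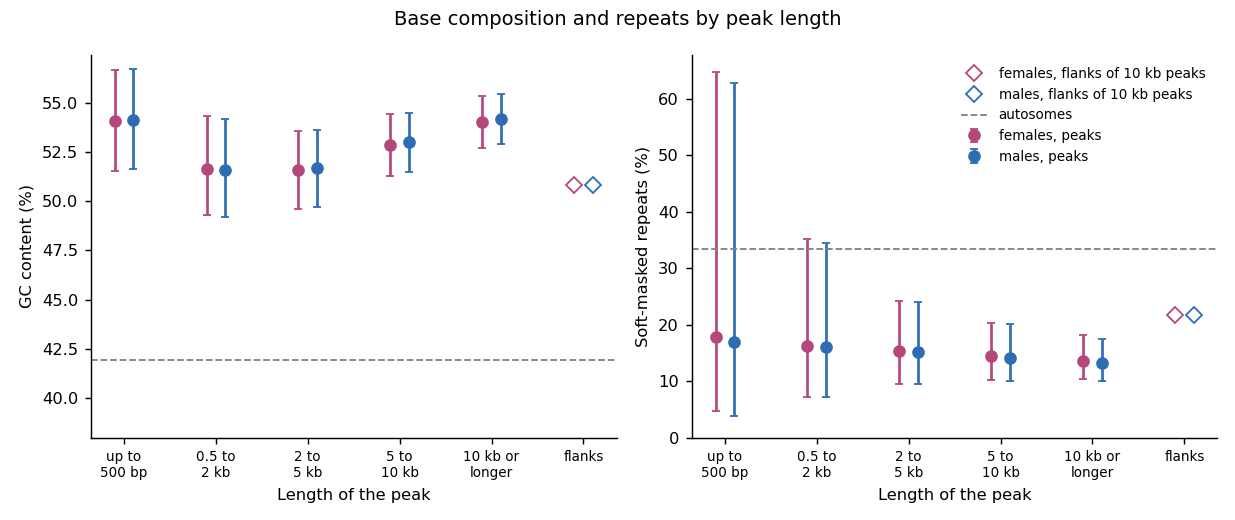
GC content (left, vertical axis in percent, starting above 0) and soft-masked repeats (right, in percent) by length of the peak, with the flanks of the peaks of 10 kb or longer at the far right and the autosomes as a dashed line; points are medians over peaks and bars run from the first to the last quartile. GC content is 54.0% in female long peaks and 50.8% in their flanks, and the repeat share is 13.6% and 21.8%.

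Most long peaks lay in genes, as did peaks of 5 to 10 kb. Protein-coding genes covered a median of 95.2% of a female and 95.7% of a male long peak, against 85.9% and 88.5% of the flanks, and 40.2% of the autosomes lie in such genes. In peaks of 5 to 10 kb the median was 100% in females and 99.9% in males. No such gene overlapped 163 female and 140 male long peaks. Exons, including untranslated ones, made up a median of 13.6% and 14.1%, against 3.92% and 3.99% in the flanks. The share exceeded the mean of both flanks for 893 of 1449 female and 903 of 1420 male long peaks. In peaks of 5 to 10 kb the medians were 6.65% and 7.06%, against 1.23% and 1.43% in the flanks. Transcription start sites numbered 26.3 per Mb in female and 25.5 per Mb in male long peaks, close to the 28.5 and 28.0 per Mb of the flanks and above the 8.45 per Mb of the autosomes. In peaks of 5 to 10 kb they numbered 30.1 and 31.0 per Mb, against 20.8 and 22.2 per Mb in the flanks. A start site lay inside 456 female (31.5%) and 431 male (30.4%) long peaks.

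In the deposited annotation of the listed bins, 42.3% to 44.1% of long peaks in the female tables and 44.8% to 46.1% in the male tables fell in promoters (within 3 kb of a start site). Over all autosomal peaks the share was 20.4% to 21.6% and 19.7% to 22.9%. Distal intergenic bins made up 10.8% to 12.7% and 10.5% to 11.1% of long peaks, against 37.9% to 38.8% over all autosomal peaks of the 6 tables. Within 1 kb of a start site the share was 24.7% to 27.3% in females and 24.3% to 28.4% in males, against 12.1% to 16.2% over all peaks.

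Zinc finger genes were assigned to 15 to 17 long peaks in the female and 17 to 18 in the male tables, or 1.04% to 1.27%, against 1.83% to 1.97% over all autosomal peaks. The 95% Wilson interval of the share in the control table was 0.735% to 1.87% in females and 0.803% to 1.99% in males. It treats peaks as independent, while they share libraries and the 17 female ones were assigned to 14 genes. No conclusion is drawn from it. At 20 kb or longer few peaks were left. The share was then 2.05% of 195 male peaks, against 1.84% over all peaks of the male control table. In females it was 0.985% of 203 peaks, against 1.91%. The loci of zinc finger genes with long peaks in all tables and the greatest length were 3. At chr8:122215537-122340302 Zfp469 lies beside Zfpm1, the GATA cofactor gene known as FOG1. The others hold the BTB-domain genes Zbtb42, beside the kinase gene Akt1, and Zbtb7a, beside Pias4. Zbtb42 was the assigned gene in the male 3-week table only, and Zbtb7a in the male 8-week table only. Akt1 and Pias4 were assigned in the other tables. Zfpm1 lay within long peaks over 97.1% of its length in females and 97.2% in males. Zfp316 and Zfp146, described above for their signal, are KRAB and C2H2 zinc finger genes.

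Several gene families had peaks but no long one. The share of long peaks among all autosomal peaks was 0.894% to 1.39% in the 6 tables, so that in families with few peaks 0 or 1 long peak lies near that share. In the control tables, olfactory receptor genes had 1045 peaks in females and 1214 in males, with a longest peak of 7369 and 9658 bp. Vomeronasal receptor genes of type 1 had 306 and 325 peaks, and those of type 2 had 364 and 419. The longest of type 1 measured 6063 bp in females and 9992 bp in males, just under the threshold, and the longest of type 2 measured 6767 and 6981 bp. Families with fewer peaks were the clustered protocadherin genes (80 and 82 peaks) and the MHC, defensin and prolactin genes (86, 76 and 34 peaks in females), and none of the families in this paragraph had one in any of the 6 tables.

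Other families gave a few each. Voltage-gated and potassium channel genes were assigned to 25 to 26 long peaks in the female and 27 to 29 in the male tables (1.73% to 2.05%), against 1.23% to 1.29% over all peaks. The longest were at Cacna1h, a T-type calcium channel gene (chr17:25369859-25420212, 42652 bp in males and 30006 bp in females), at Kcnab2 and at Kcnj4. Lineage transcription factors of other tissues were assigned to 13 to 14 long peaks in every table (0.898% to 0.991%), against 0.679% to 0.720%. They included Nkx6-2, an oligodendrocyte and neural tube factor (18026 bp in females, 19528 bp in males), and Lhx3, a pituitary and motor neuron factor (17851 and 13329 bp). In males they also included Sox10, a neural crest factor (16050 bp). The female peak of 24086 bp at that locus was assigned to Polr2f in each female table and is not counted here.

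Adhesion and fragile-site genes were assigned to 16 to 18 long peaks in females and 18 to 20 in males (1.11% to 1.42%), close to the 1.22% to 1.41% over all peaks. They included the synaptic adhesion gene Nrxn2, where a male peak reached 43135 bp and the longest female peak 19979 bp, and Wwox. Gm-numbered and Speer genes were assigned to 1.42% to 2.14% of long peaks, against 4.09% to 4.34% over all peaks. Cytochrome P450 genes were assigned to 3 or 4 long peaks in females and 2 in males (0.141% to 0.277%), against 0.303% to 0.353% over all peaks. Those in both sexes were Cyp26b1, which degrades retinoic acid, and Cyp21a1, an adrenal steroid hydroxylase gene, and Cyp46a1, the cholesterol hydroxylase of brain, was in females. Keratin genes were assigned to 4 long peaks in each female and 3 in each male table (0.211% to 0.277%), against 0.198% to 0.223% over all peaks, the longest at Krt17 (18876 bp in females, 14601 bp in males). Single loci lay at Sult4a1, a brain sulfotransferase gene (10338 and 10055 bp), and, in 1 sex, at the Hoxa3 to Hoxa7 genes (females, 19993 bp), Serpinf2, the antiplasmin gene (females, 11887 bp), and near Scgb1b27 (males, 12961 bp).

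Of all protein-coding genes, 7.36% in females and 7.09% in males met a long peak, and both lists below lie near or under that share. Of 29 hepatocyte genes found in the annotation, 17 in females and 18 in males overlapped a peak of any length, and 1 overlapped a long peak. This was Ass1, an enzyme gene of the urea cycle, with peaks of up to 18158 bp in females and 14237 bp in males. Of 23 genes for writers, readers and erasers of heterochromatin, 20 overlapped a peak and 2 a long one in each sex: Ehmt2, which encodes the H3K9 methyltransferase G9a (11331 and 15151 bp), and Kdm4b, which encodes an H3K9 demethylase (22471 and 16845 bp).

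Long peaks met 1531 protein-coding genes in females and 1475 in males, 1049 of them in both. Genes with many bases in long peaks of both sexes were chosen after their values were seen. They included Gse1 (159 kb in females, 214 kb in males), Rbfox3 (145 and 193 kb), the cortical neuron factor gene Cux2 (95.9 and 133 kb), the exchange factor gene Arhgef10l (88.4 and 90.5 kb) and Macrod1 (87.1 and 85.3 kb). Gse1 had 10 long peaks in females and 12 in males, which together covered 45.0% and 60.6% of the gene.

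For some genes most of the length lay in long peaks in both sexes. These included Bahcc1, a chromatin reader gene (96.1% in females, 97.8% in males), Kif26a (98.8% and 89.4%), Plxna1 (96.4% and 92.2%) and Plxnd1 (95.9% and 97.8%). Others were Nphp4 (96.0% and 87.5%), Cacna1h (94.2% and 86.9%), the receptor phosphatase gene Ptprs (85.0% and 94.1%) and Grm4, a glutamate receptor gene of the brain (81.3% and 81.4%). In long genes the share was smaller, with Camta1 at 7.91% and 6.25%.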

How the data were processed

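Liver H3K9me3 ChIP-seq was read from 6 deposited tables. According to the methods of the study, reads were aligned by the authors with BWA to mm10 (GRCm38). The authors called broad peaks with MACS2, removed blacklisted regions, merged peak sets separately by sex, cut peaks over 500 bp into bins, counted reads with featureCounts and annotated bins with ChIPseeker. The only measurement used is the deposited average log2 CPM of the authors, taken over the 8 libraries of a table. The 3 columns of the authors' own comparisons (fold change, p-value and FDR) were not used. Depth per library is not given in the tables, so no counting error is stated.

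Parent peaks were read from the bin names and kept at 10000 bp or longer on the 19 autosomes. GC content, CpG ratio and soft-masking came from the RefSeq GRCm38.p6 sequence, and genes from GENCODE vM21 of that build, leaving out 1 protein-coding model over 3000000 bp (Gm20388). A distance between bins is that of their starts. Assigned genes and features are those of the deposited annotation. Flanks are the adjoining stretches of equal length. Computation used Python, numpy, pandas and scipy, and the interval helpers were tested on simulated data.

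Named loci were the 6 longest in all tables (median over tables of the longest peak), the 3 longest in 1 sex only, the 3 highest in signal, the 3 largest and smallest pool differences and up to 3 per gene family; some items that these rules name are not reported here. Members, lists and rules were chosen with earlier results of these data known. Coordinates are as deposited.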

Additional observations from a re-analysis of the deposited data

How the results depend on the processing

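No paired analysis was possible because the tables hold no values per library, and for the same reason leaving out replicates was not run. Length thresholds of 8, 15 and 20 kb gave 2474, 497 and 203 long peaks in females and 2417, 496 and 195 in males, with median lengths of 10697, 19033 and 24999 bp and of 10770, 18503 and 24505 bp, and 49.4%, 42.1% and 38.8% of loci in all 6 tables. With any peak of any length in the other tables, 99.3% of loci were in all 6. Joining peaks up to 1 kb apart first, an alternative chosen after seeing the data, gave 2338 and 2475 long peaks, so that the number of long peaks depends on where the caller breaks a peak. At 20 kb the distal intergenic share was 9.85% in females and 9.23% in males, and in males it was 12.9% at 8 kb and 8.47% at 15 kb. At 20 kb the median log2 CPM of males was 2.10. The zinc finger share there was 2.05% of 195 male peaks and 0.985% of 203 female peaks. Over all peaks of the control tables it was 1.84% in males and 1.91% in females. Promoters within 1 kb held 26.2% and 24.8%. Bins alone were soft-masked over 5.39% in both sexes. The 8-week minus 3-week difference was 0.033 in females and 0.10 in males after centring on all matched peaks, and 0.73 in males with the same bin. The female minus male difference over overlapping bins was 0.23 at 3 weeks and 0.31 in the control tables. Other alternatives stayed within the interval of the main value or, for the number of peaks on all chromosomes, within 1.5 times it. Depth limits could not be given.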
